A study of Mus musculus with 6 samples.

Results

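The transcripts described here encode the non-collagen proteins of the extracellular matrix: elastic fibre and microfibril proteins, small leucine-rich proteoglycans, hyaluronan and versican genes, basement membrane proteins, and adhesive and matricellular proteins. The 47 genes were chosen by name, and each was represented by the brightest of the probe sets that carry its symbol alone, by mean over 6 arrays. Of the 47, 45 had such a probe set, and Fbn1 and Efemp2 are not analysed here. After the dimmest 40% of all probe sets were left out, 44 of the 47 were tested, among 13038 named genes on 27022 tested probe sets. They were measured on Affymetrix Mouse Genome 430 2.0 arrays in 3 Zmpste24-/- and 3 wild-type (Zmpste24+/+) cultures of mouse embryonic fibroblasts, 1 array each. All 6 cultures were C57BL/6, were derived from E13.5 embryos, and were at passage 3, without a drug or other agent named. Within either genotype the cultures carry the numbers 1 to 3, and the labels do not say what a number marks, which part of Zmpste24 was deleted, or whether each culture came from 1 embryo. The p-values therefore measure the spread between these cultures.

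Embryonic fibroblasts secrete most of the matrix around them. Elastic fibres form when elastin is laid onto a scaffold of microfibrils, made of fibrillins and their partners, and then cross-linked. Small leucine-rich proteoglycans bind collagen fibrils and set how thick and how regular they grow. Basement membranes are sheets of laminin and type IV collagen joined by nidogens and perlecan, and matricellular proteins such as thrombospondins and tenascins bind the matrix and signal to cells without building its frame. Zmpste24 encodes the protease that trims prelamin A into lamin A, a nuclear protein.

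The Zmpste24 probe set read 365, 182 and 226 in Zmpste24-/- cultures, against 3849.9, 2249 and 2043 in wild-type cultures, always in the order of cultures 1, 2 and 3. Zmpste24-/- was lower in each same-numbered pair. Xist, the RNA of the inactive X chromosome, read 6669, 4766 and 6660.1 in Zmpste24-/- cultures, against 5324, 69.3 and 43.7 in wild-type cultures. Eif2s3y, a gene of the Y chromosome, read 14.6, 10.4 and 15.7 in Zmpste24-/- cultures, against 1.50, 531 and 1341 in wild-type cultures. By these transcripts the sex of the cells differed between the genotypes in cultures 2 and 3 and not in cultures 1, so genotype and sex cannot be told apart in cultures 2 and 3. Over all probe sets the 2 arrays of cultures 1 had a correlation of 0.985, and either of them had one of 0.927 to 0.934 with arrays of cultures 2 and 3. Between arrays of cultures 2 and 3 it was 0.9801 to 0.987, so cultures 1 stood apart. The fibroblast markers, 11 of 11 tested, summed to 103865, 95046 and 96772 in Zmpste24-/- cultures and 107177, 104159 and 96421 in wild-type cultures, so the labelled cell type had its markers on every array.

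Signals of different probe sets do not rank RNA amounts between genes, but they show which members were bright. Sparc, which encodes a collagen-binding matricellular glycoprotein, read 24559.7, 24211 and 25472 in Zmpste24-/- cultures, against 24703, 26519.9 and 24512 in wild-type cultures. Bgn, the gene of the proteoglycan biglycan, read 21120.3, 20143 and 20126 in Zmpste24-/- cultures, against 21459, 21687 and 20231 in wild-type cultures. Fn1, which encodes fibronectin, the adhesive protein that cells bind through integrins, read 14587, 13476 and 14611 in Zmpste24-/- cultures, against 14975, 15976 and 13761 in wild-type cultures. Of all probe sets other than controls, 0.00444%, 0.0866% and 0.542% had a higher mean signal than these 3 members. Their groups overlapped for genotype and for number, and whether such bright probe sets were saturated was not tested. At the dim end Sparcl1, a relative of Sparc, read 60.8, 18.4 and 16.9 in Zmpste24-/- cultures, against 74.0, 9.23 and 34.0 in wild-type cultures, and it was the 1 member on the array that did not pass the filter. Tnxb, the gene of tenascin-X, read 28.7, 60.04 and 49.4 in Zmpste24-/- cultures, against 42.0, 5.90 and 72.8 in wild-type cultures. Ltbp4, whose product is needed for elastic fibre assembly, read 196, 189 and 183 in Zmpste24-/- cultures, against 122, 209.7 and 154 in wild-type cultures. The Tnxb values spread widely within both genotypes, and neither Tnxb nor Ltbp4 separated the genotypes or the numbers.

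The first comparison asked whether the cells without Zmpste24 differed in these matrix transcripts. No member passed the test of genotype: 0 of 44 were called by limma, the moderated linear model fitted across all probe sets, at a Benjamini-Hochberg adjusted p under 0.05. The background was the same, with 0% of the 27022 probe sets called. Every member had an adjusted p of 0.9999 in this fit. Zmpste24 itself was not called in it either, at a log2 difference of -3.31 (SE 0.34, limma adjusted p = 0.987). This fit can thus miss a difference of that size. At an unadjusted p under 0.05 there was 1 of 44 members, Smoc1, and 349 of 27022 probe sets. Deviations of same-numbered cultures from their group means correlated, so the number was also fitted as a replicate block. In that fit 0.0185% of all probe sets were called, among them Zmpste24 (limma adjusted p = 4.02e-05). Of the 44 members 0 were called, with adjusted p from 0.341 (Fmod and Mfap5) to 0.993. An unadjusted p under 0.05 was held by 10 of 44 members and 2430 of 27022 probe sets, a larger share of the members.

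Of the 44 members, 26 were higher and 18 lower on average in Zmpste24-/-, with a median log2 difference of 0.03, against -0.0048 over all tested probe sets. A log2 difference here is on the scale log2(signal + 16), which understates the change of dim genes. In all 3 same-numbered pairs 12 members (27.3%) were higher in Zmpste24-/- and 4 (9.09%) were lower, beside a background of 15.8% and 16% of tested probe sets. The medians of the members were 0.10, -0.09 and 0.10 in pairs 1, 2 and 3, so pair 2 ran the other way. In 1 member (2.27%) every Zmpste24-/- culture was above every wild-type culture, and in 0 members every one was below, beside a background of 2.22% and 3.03%. The share of members with separate groups was thus near the background. The sums of some other marker lists kept 1 direction by genotype. The chondrocyte and osteoblast list, 12 genes of which 9 were tested, summed to 1172, 1934 and 1969 in Zmpste24-/- cultures and 911, 1361 and 1125 in wild-type cultures, and the neural and glial list to 2993, 2617 and 2409.5 in Zmpste24-/- cultures and 1563, 2598 and 2267 in wild-type cultures. Both sums were higher in Zmpste24-/- in each pair. Of the 9 chondrocyte and osteoblast genes tested, 7 were higher and 2 lower on average. Of the 8 neural and glial genes tested, 5 were higher and 3 lower. The neural and glial medians were 0.48, 0.03 and -0.03 in pairs 1, 2 and 3, so these genes did not keep 1 direction as their sum did. The smooth muscle list summed to 35881, 48715 and 46666 in Zmpste24-/- cultures and 39936, 50729 and 47076 in wild-type cultures, and all 7 of its genes were lower on average in Zmpste24-/-. The endothelial and skeletal muscle sums were lower in each pair as well. Of the 8 endothelial genes tested, 4 were higher and 4 lower on average, with Flt1 the lowest at -0.83. Without Acta1 the skeletal muscle sum was higher in Zmpste24-/- in pair 1 (299.5 against 198) and pair 2 (411 against 286), and lower in pair 3. The fibroblast, macrophage, epithelial and dividing-cell sums did not keep 1 direction. No gene of these lists was called by genotype, and their part in the values below was not tested.

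**Figure D1:**
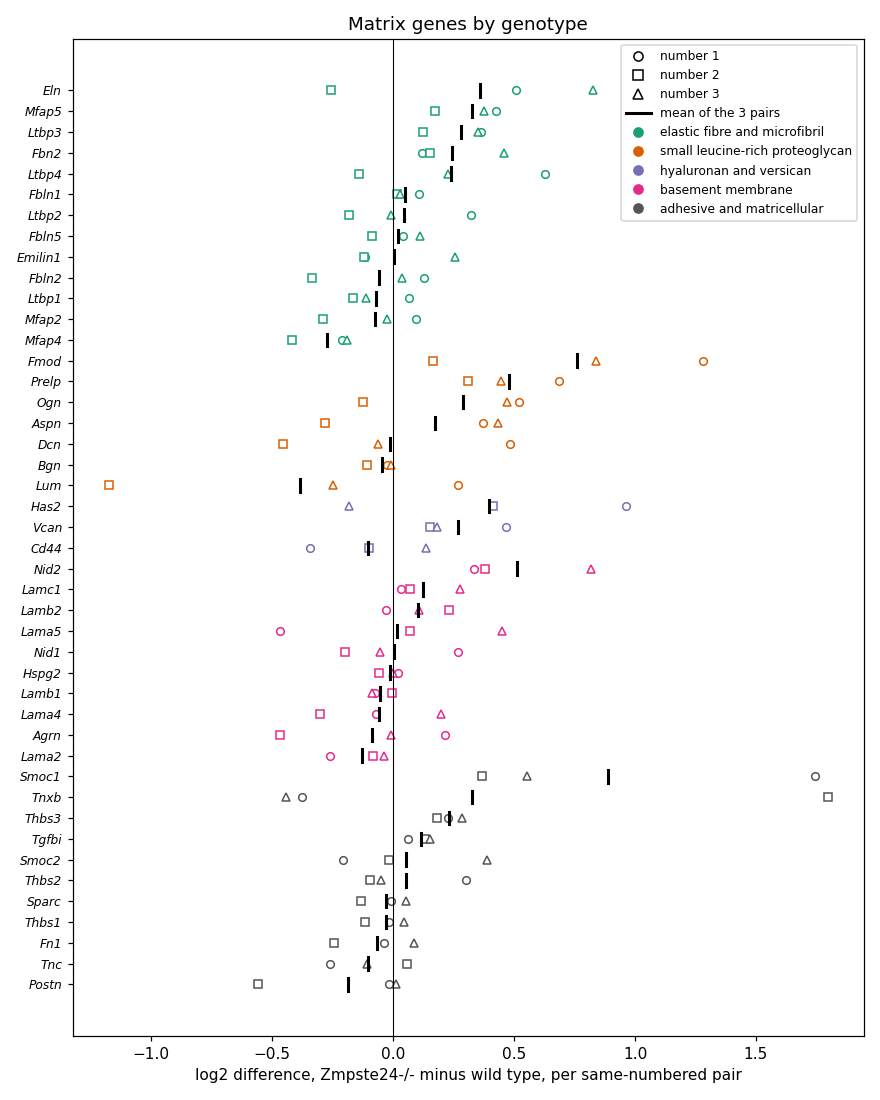
Log2 difference in signal, Zmpste24-/- minus wild type, for the 44 tested genes (down the page, grouped and coloured by role), with 1 symbol per same-numbered pair and a bar at the mean of the 3 pairs. Most bars lie close to 0 and most genes have symbols on both sides of it; Smoc1 and Fmod have the means farthest to the right, at 0.89 and 0.76, and neither was called.

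The member with separate groups was Smoc1, which encodes a secreted calcium-binding protein related to Sparc and found near basement membranes. It read 737, 425 and 470.4 in Zmpste24-/- cultures, against 209, 325 and 315 in wild-type cultures. Culture 1 was the highest of the Zmpste24-/- cultures and the lowest of the wild-type cultures, so the gap was widest in pair 1. The log2 difference was 0.89 (SE 0.28), or 1.85-fold, with pair differences of 1.74, 0.37 and 0.55. It was not called by limma without the block (adjusted p = 0.9999) or with it (adjusted p = 0.407). The difference between pair 1 and the other pairs was tested as an interaction of genotype with number. For Smoc1 it was 1.28 on the log2 scale, with a limma adjusted p of 0.299. The interaction was called in 0 of 44 members and in 0.0259% of all probe sets. At an unadjusted p under 0.05 it held 9 of 44 members and 1240 of all probe sets (4.59%), a larger share of the members. By Xist the sex of the cells differed within pairs 2 and 3 and not within pair 1. This interaction and sex therefore cannot be told apart, for Smoc1 or for the counts. Xist itself had an interaction of -5.98 (limma adjusted p = 6.63e-04).

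The second comparison set the culture numbers against each other, with genotype in the fit. Here the matrix genes differed widely: 31 of 44 members (70.5%) were called by limma's F test over the 3 numbers, beside a background of 41.6% of all tested probe sets. The members are the brightest probe set of each gene, whereas the background also holds dimmer and further probe sets of a gene. The shares are therefore not like for like, here and in the other comparisons with the background, and a background matched for signal was not tested. The size is given as number 1 minus the mean of numbers 2 and 3. Of the 44, 20 (45.5%) were called and higher in number 1, among them 6 of the 7 small leucine-rich proteoglycans, with lumican 14.3-fold and decorin 7.50-fold higher. The background of such calls was 22.4%. In the other direction 11 (25.0%) were called and lower, among them elastin, fibrillin-2, Mfap5, Has2 and Cd44, beside a background of 19.2%. Of the called members, 13 differed by over 2-fold, 11 of them higher and 2 lower in number 1, and 7 differed by under 1.5-fold.

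The median difference of the 44 members was 0.20, against 0.04 over all tested probe sets, and the median size regardless of sign was 0.61, against 0.39. Both arrays of number 1 were above the other 4 in 21 members and below them in 12, beside a background of 31.2% and 27.2%. Each genotype was also taken alone, with 1 culture of number 1 against 2. The median was 0.23 in Zmpste24-/- cultures and 0.19 in wild-type cultures, and 39 of the 44 members had the same sign in both. All 31 called members were among these, which the F test over both genotypes favours. The Zmpste24-/- cultures were all high in Xist, so in them no difference of sex by Xist accompanies the number. Among the wild-type cultures Xist was high in number 1 alone, so there sex and number cannot be told apart. The part of sex in these differences was not tested. Adjusted p ranged from 1.53e-05 to 0.0449 among the called members, and the lowest among the 13 not called was 0.0662 (Hspg2).

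Calls near the threshold moved with the settings. Without limma's intensity trend 18 members were called, beside 28.6% of all probe sets, and Eln, Ltbp1, Ltbp2, Ltbp3, Fmod, Vcan, Nid1, Nid2, Lamb1, Tnc, Thbs1, Postn and Tgfbi were not. Over 13 alternatives, among them each culture left out in turn, 17 of the 31 were called every time, 12 of them higher and 5 lower in number 1: Fbn2, Emilin1, Mfap2, Mfap4, Mfap5, Dcn, Lum, Ogn, Aspn, Prelp, Has2, Cd44, Lama4, Lamb2, Lamc1, Thbs2 and Thbs3. Lama2 was the 1 further member that lost its call only when a culture was left out, with an adjusted p of 0.0674 without Zmpste24-/- culture 1 and 0.0537 without Zmpste24-/- culture 3. All 31 had the same direction under the 13 alternatives. Centring each array on its median lowered the median difference of all probe sets by number to -0.07, against 0.04 as deposited, and 28 members were then called, 16 higher and 12 lower, beside 39.9% of all probe sets. For 21 of the called members 34 further probe sets were tested. Of these, 29 had the sign of the brightest, 24 were called with that sign, and 0 were called with the opposite sign.

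Markers of macrophages and of division moved with the number too. In number 1, Zmpste24-/- and then wild type, the 17 macrophage markers summed to 16566 and 9187, against 1915 and 1997 in Zmpste24-/- and 2303 and 3042 in wild type for numbers 2 and 3. Of 14 tested, 12 were called and higher in number 1, and C1qa, a complement gene of macrophages, read 1008, 3.40 and 3.18 in Zmpste24-/- cultures, against 380.0, 9.02 and 8.67 in wild-type cultures. The markers of dividing cells summed to 10840.0 and 10599 in number 1, against 49492 and 44134 in Zmpste24-/- and 42881 and 45311 in wild type, and 17 of 17 were called and lower. Of all tested probe sets 22.4% were called and higher and 19.2% called and lower in number 1. Number 1 was thus high in macrophage markers and low in markers of division. Of the 7 smooth muscle markers 6 were called by number, 5 of them lower in number 1, and Myh11 higher, at 0.64 (adjusted p = 0.0231). Of 10 epithelial markers 5 were tested and 3 called, all lower in number 1, and Krt18 and Krt19 carried the sum. It was 737 and 644 in number 1, against 3069 to 3536 in the other 4 cultures, and without these keratin genes it showed no order by number, at 559, 415 and 453 in Zmpste24-/- and 444, 514 and 703 in wild type. Of 10 skeletal muscle markers 3 were tested and 2 called, both lower. The sum over all 10, 613 and 803 in number 1, against 2011 to 4158, was mostly Acta1, and without it the sum was 299.5, 411 and 321 in Zmpste24-/- and 198, 286 and 361 in wild type. These genes were left out after their values were seen. The endothelial sums lay between 2068 and 2440.0, and the neural and glial sums between 1563 and 2993. The part of these cells and of division in the matrix values was not tested, and in such bulk RNA fewer cells of a type and less RNA per cell cannot be told apart.

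**Figure D2:**
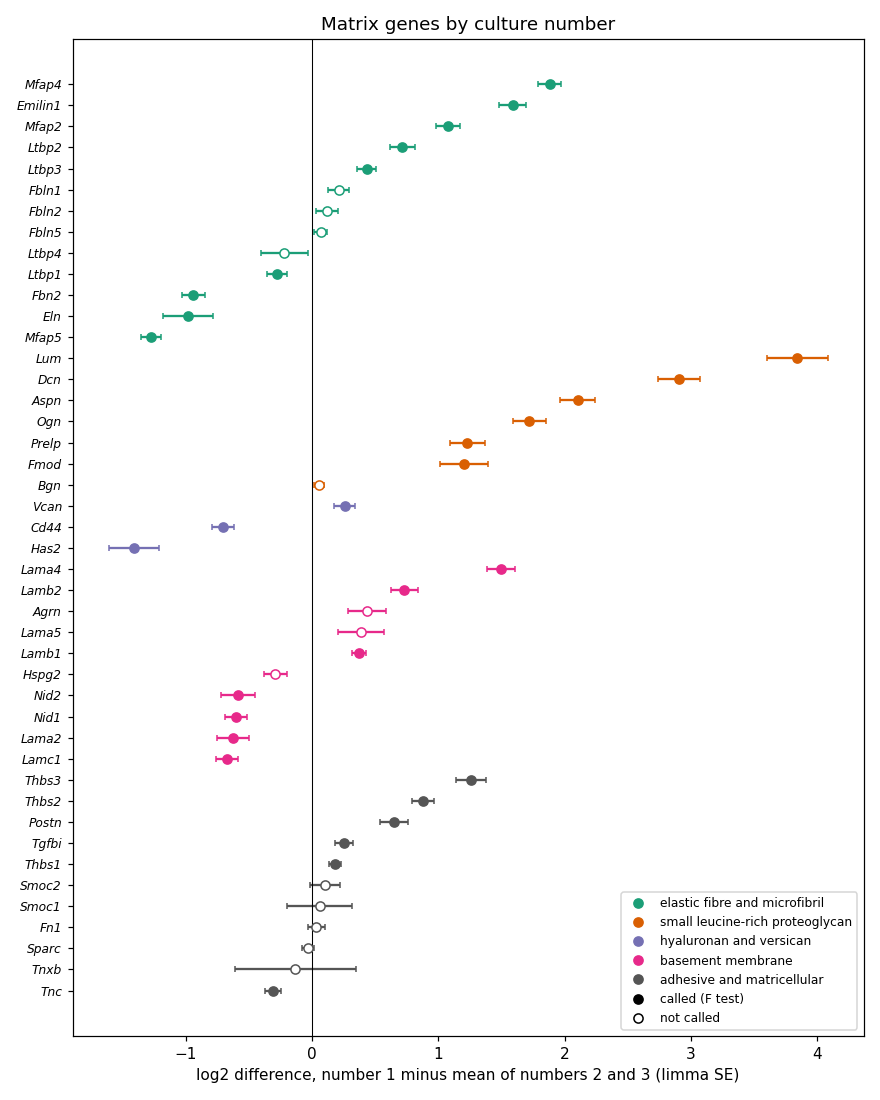
Log2 difference in signal, number 1 minus the mean of numbers 2 and 3, for the 44 tested genes (down the page, grouped and coloured by role), with limma SE bars; filled symbols were called by the F test and open symbols were not. The proteoglycans Lum, Dcn and Aspn lie farthest to the right, at 3.84, 2.91 and 2.11, and Has2 and Mfap5 farthest to the left, at -1.41 and -1.27.

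The small leucine-rich proteoglycans had the largest median difference by number of the 5 roles, 1.72 over 7 genes. Of the 7 tested, 6 were called and all 6 were higher in number 1, beside a background of 22.4% called and higher. Lum encodes lumican, a keratan sulfate proteoglycan of collagen fibrils, and read 7892, 292 and 483 in Zmpste24-/- cultures, against 6548, 681 and 577 in wild-type cultures. Dcn encodes decorin, which coats collagen fibrils and binds growth factors, and read 6233, 477 and 825 in Zmpste24-/- cultures, against 4457, 660.2 and 862 in wild-type cultures. Both genes were high in the cultures numbered 1 of either genotype and low in the other 4, with no overlap. The difference by number was 3.84 (SE 0.24, F-test adjusted p = 4.28e-05) for Lum and 2.91 (SE 0.17, F-test adjusted p = 2.77e-05) for Dcn. Aspn encodes asporin, a relative of decorin that binds collagen and transforming growth factor beta, and it read 8410.4, 1298 and 2364 in Zmpste24-/- cultures, against 6505, 1582 and 1745 in wild-type cultures. Number 1 was again above the rest in both genotypes, by 2.11 (SE 0.14, F-test adjusted p = 4.87e-05).

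Ogn, the gene of osteoglycin, read 8279, 1759 and 2784 in Zmpste24-/- cultures, against 5773, 1921 and 2006 in wild-type cultures. Its number 1 cultures lay above the other 4, by 1.72 (SE 0.13, F-test adjusted p = 8.20e-05). Fmod encodes fibromodulin, which guides the assembly of collagen fibrils. Its signals were 5003, 1334 and 2029 in Zmpste24-/- cultures, against 2050.2, 1189 and 1129 in wild-type cultures. Both number 1 cultures were above the other 4, and Zmpste24-/- was above wild type in each pair, although the groups overlapped. The difference by number was 1.20 (SE 0.19, F-test adjusted p = 0.00325) and by genotype 0.76 (SE 0.50), which was not called (limma adjusted p = 0.9999, and 0.341 with the replicate block). All 6 probe sets of Fmod were higher on average in Zmpste24-/-, by 0.48 to 0.95. In pair 2 some of the less bright ones ran the other way, at 346 against 388 and 147 against 197 in wild type.

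Prelp, which encodes a proteoglycan that anchors basement membranes to collagen, read 614, 197 and 259 in Zmpste24-/- cultures, against 376, 156 and 185 in wild-type cultures. It too was highest in the number 1 cultures and higher in Zmpste24-/- within each pair, with groups that overlapped. The log2 difference was 1.23 (SE 0.14, F-test adjusted p = 6.20e-04) by number and 0.48 (SE 0.49) by genotype. Bgn stood apart from this pattern: given above, its signals were within a narrow band on all 6 arrays, at 0.05 by number (adjusted p = 0.395) and -0.05 by genotype. Whether this bright probe set was saturated, which would narrow its band, was not tested. For Dcn, Lum, Ogn and Aspn the genotype differences were -0.01, -0.38, 0.29 and 0.17, with SEs of 1.10, 1.44, 0.66 and 0.81. None of them was called, and these SEs come from the fit without the number, so they hold the spread between numbers.

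**Figure D3:**
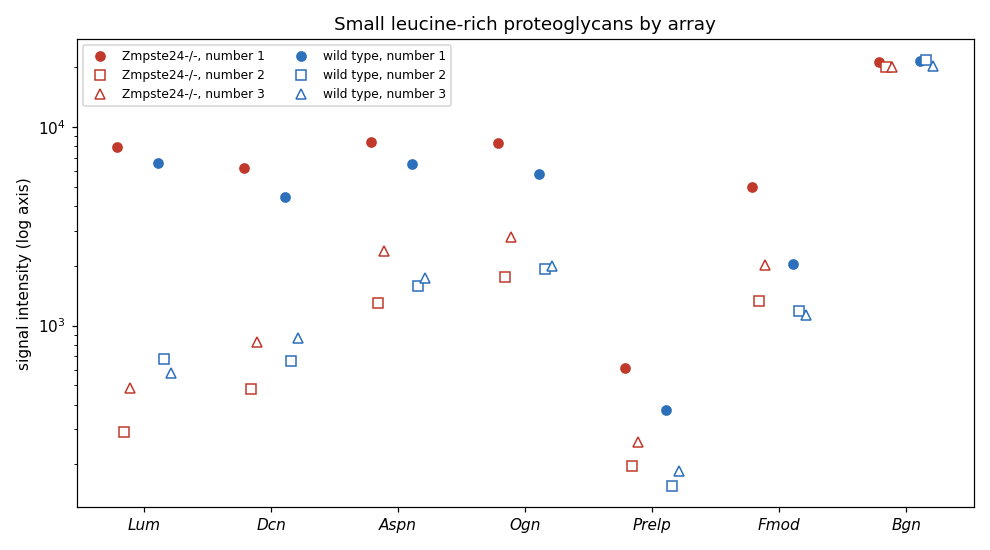
Signal per array on a log axis for the 7 small leucine-rich proteoglycan genes, Zmpste24-/- cultures in red left of wild-type cultures in blue, filled circles for number 1, squares for number 2 and triangles for number 3. The filled circles lie above all other symbols for every gene but Bgn, and the colours overlap in all 7.

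In the RefSeq gene order of GRCm38.p6, 6 of these genes lie beside other genes of their family. Dcn and Lum are followed by Kera and Epyc on chromosome 10, Ecm2, Aspn, Omd and Ogn follow each other on chromosome 13, and Prelp and Fmod follow Optc on chromosome 1, while Bgn lies on chromosome X without such neighbours. Values of these neighbours are given as a description, since they were chosen after the members' values were seen. Epyc, which encodes epiphycan, a proteoglycan of growth plate cartilage, read 142, 12.2 and 17.5 in Zmpste24-/- cultures, against 114, 12.5 and 23.8 in wild-type cultures. Kera, the gene of the corneal proteoglycan keratocan, was too dim to be tested and read 44.6, 1.85 and 1.90 in Zmpste24-/- cultures, against 50.7, 1.48 and 2.62 in wild-type cultures. Both had their highest signals in number 1, as Lum and Dcn did. Omd, the gene of osteomodulin, read 278, 148 and 155 in Zmpste24-/- cultures, against 165, 91.8 and 101 in wild-type cultures, and Ecm2 read 29.5, 19.9 and 14.9 in Zmpste24-/- cultures, against 23.4, 27.5 and 31.3 in wild-type cultures. Omd was high in number 1 while the untested Ecm2 stayed dim with no order by number. Optc, the gene of opticin, read 81.7, 156 and 169 in Zmpste24-/- cultures, against 72.3, 159 and 182 in wild-type cultures, which is lower in both number 1 cultures than in the other 4, opposite to its neighbours Prelp and Fmod.

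The promoters of 4 of the genes that were higher in number 1 and of Bgn, which was not called, are shown to set side by side the letters just before their starts. They are the 120 bases before the annotated start, from RefSeq on GRCm38.p6, written 5′ to 3′ on the gene's strand, and capitals mark matches to the motifs searched.
Aspn (chr13:49544323-49544442, plus strand): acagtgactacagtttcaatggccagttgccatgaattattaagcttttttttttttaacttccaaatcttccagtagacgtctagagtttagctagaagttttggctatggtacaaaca
Ogn (chr13:49607895-49608014, plus strand): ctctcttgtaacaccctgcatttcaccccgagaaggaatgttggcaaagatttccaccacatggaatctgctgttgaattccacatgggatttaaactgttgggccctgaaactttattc
Fmod (chr1:134037134-134037253, plus strand): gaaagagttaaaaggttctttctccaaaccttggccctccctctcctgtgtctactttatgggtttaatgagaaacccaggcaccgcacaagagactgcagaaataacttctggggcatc
Prelp (chr1:133921402-133921521, minus strand): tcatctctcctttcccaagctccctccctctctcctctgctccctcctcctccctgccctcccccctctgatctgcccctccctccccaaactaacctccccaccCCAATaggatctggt
Bgn (chrX:73483481-73483600, plus strand): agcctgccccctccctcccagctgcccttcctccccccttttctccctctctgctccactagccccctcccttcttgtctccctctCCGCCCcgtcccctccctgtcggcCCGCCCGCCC
The motifs, searched on both strands over the 250 bases before the start, were the TATA box (TATAAA), the CCAAT box (its name gives the letters), the GC box (GGGCGG), the AP-1 site (TGACTCA) and an E-box (CACGTG). The G and C content was 35%, 44.2%, 46.7%, 61.7% and 71.7% in the order shown. In the 120 bases Prelp held a CCAAT match 15 bases before the start, and Bgn held 3 GGGCGG matches on the opposite strand, 2 of which overlap. Aspn, Ogn and Fmod held none of the 5 motifs there. Farther from the start, within the 250 bases, Aspn held TATAAA matches at 207 and 178 bases and a CCAAT match at 229. Ogn held TATAAA matches at 227 and 229 bases. Over 43 promoter windows of 32 members, GGGCGG was found in 24, CCAAT in 11, TATAAA in 6, CACGTG in 2 and TGACTCA in 1, whereas of 32851 windows of the same length 32.7%, 33.9%, 12.4%, 6.02% and 4.46% held them. A match is a run of letters, not a bound site, and windows of 1 gene can overlap.

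The elastic fibre and microfibril genes split in direction by number. Of 13 tested, 5 were called and higher and 4 called and lower in number 1, beside a background of 22.4% and 19.2%. Mfap4, which encodes a microfibril protein that binds elastin and fibrillin, read 2937, 771 and 749 in Zmpste24-/- cultures, against 3404, 1036 and 856 in wild-type cultures. Emilin1, whose product sits where elastin meets microfibrils, read 2381, 827 and 839.7 in Zmpste24-/- cultures, against 2585, 900.5 and 701 in wild-type cultures. Both were high in number 1 and low in the other 4 cultures without overlap, by 1.88 (SE 0.09, F-test adjusted p = 1.53e-05) and 1.59 (SE 0.11, F-test adjusted p = 5.91e-05). Mfap2, Ltbp2 and Ltbp3 were also called higher, by 1.08, 0.72 and 0.43. A less bright probe set of Ltbp3 gave a larger difference, 1.02 (F-test adjusted p = 1.81e-04). Mfap2 encodes a microfibril glycoprotein, and Ltbp2 and Ltbp3 belong to the family of latent transforming growth factor beta binding proteins.

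Mfap5, which encodes the second microfibril-associated glycoprotein, ran the opposite way and read 1424, 3451 and 3135 in Zmpste24-/- cultures, against 1056, 3056 and 2415 in wild-type cultures. Its number 1 cultures were below all others, 2.42-fold lower, a log2 difference of -1.27 (SE 0.08, F-test adjusted p = 4.57e-05). Eln, the gene of elastin itself, read 584, 836 and 1399 in Zmpste24-/- cultures, against 406, 1002 and 783 in wild-type cultures. Number 1 was lowest in both genotypes, and the order of numbers 2 and 3 was not the same in both genotypes. The difference was -0.98 (SE 0.20, F-test adjusted p = 0.0109) by number and 0.36 (SE 0.43) by genotype, with pair differences of 0.51, -0.26 and 0.82. Fbn2, which encodes the fibrillin prominent in embryonic microfibrils, was called lower in number 1 with a log2 difference of -0.94 (adjusted p = 2.95e-04), and Ltbp1 with one of -0.28 (adjusted p = 0.039). Fbln1, Fbln2 and Fbln5, the genes of fibulins, and Ltbp4 were not called by their brightest probe sets. A less bright probe set of Fbln1 was called and higher in number 1, by 0.54 (F-test adjusted p = 0.00754).

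By genotype the 3 elastic fibre genes with the smallest p were Ltbp3, Ltbp4 and Eln, and none was called. Ltbp3 read 4774, 3423 and 3336 in Zmpste24-/- cultures, against 3704, 3138 and 2608 in wild-type cultures. Each pair was higher in Zmpste24-/-, and the groups overlapped through wild-type culture 1, for a difference of 0.28 (SE 0.20). For Ltbp4, given above, it was 0.24 (SE 0.22), with pair 2 in the other direction. The 13 differences by genotype ran between -0.27 (Mfap4) and 0.36 (Eln), with a median of 0.04.

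**Figure D4:**
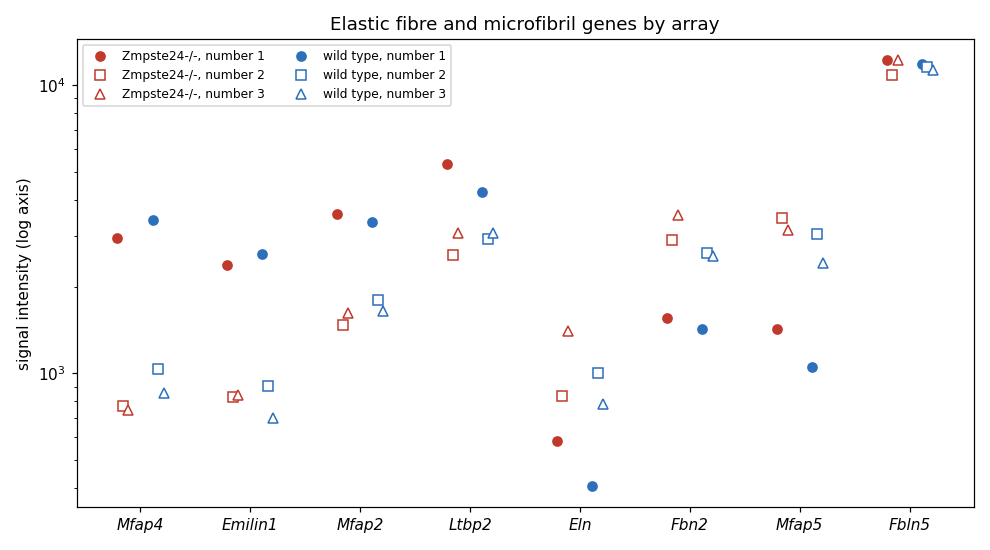
Signal per array on a log axis for 8 elastic fibre and microfibril genes, Zmpste24-/- cultures in red left of wild-type cultures in blue, filled circles for number 1, squares for number 2 and triangles for number 3. The filled circles lie above the other symbols for Mfap4, Emilin1, Mfap2 and Ltbp2, below them for Eln, Fbn2 and Mfap5, and among them for Fbln5.

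Of the 3 hyaluronan and versican genes, the synthase and the receptor were lower in number 1 and the proteoglycan was higher. Has2, which encodes the main hyaluronan synthase of fibroblasts, read 497, 1145 and 871 in Zmpste24-/- cultures, against 247, 857 and 989.7 in wild-type cultures. Number 1 was lowest in both genotypes, 2.66-fold below the others, a log2 difference of -1.41 (SE 0.20, F-test adjusted p = 0.00222). Cd44, the gene of the cell surface hyaluronan receptor, read 5551, 9689 and 10931 in Zmpste24-/- cultures, against 7056, 10372 and 9957 in wild-type cultures. It was likewise lowest in number 1, with a difference of -0.71 (SE 0.09, F-test adjusted p = 0.00106). Vcan encodes versican, a large chondroitin sulfate proteoglycan that binds hyaluronan, and read 5251, 3708 and 4218 in Zmpste24-/- cultures, against 3794, 3331 and 3717 in wild-type cultures. Its difference by number was 0.26 (SE 0.08, F-test adjusted p = 0.0449), near the threshold and with overlap between the numbers, and a second probe set of Vcan ran in the opposite direction, at -0.27 without a call. By genotype the differences were 0.40 (SE 0.57) for Has2, -0.10 (SE 0.28) for Cd44 and 0.27 (SE 0.16) for Vcan. Vcan was higher in Zmpste24-/- in each pair and the groups overlapped, and none of the 3 was called.

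Basement membrane genes were also divided by number, with 3 of 10 called higher and 4 called lower in number 1. The background of such calls was 22.4% higher and 19.2% lower, so the share called higher was near it. Lama4, which encodes the laminin alpha chain of vessel and muscle basement membranes, read 2424, 868 and 841 in Zmpste24-/- cultures, against 2548, 1075 and 732 in wild-type cultures. Number 1 was above the other cultures in both genotypes, 2.82-fold, a log2 difference of 1.50 (SE 0.11, F-test adjusted p = 9.19e-05). Lamb2, the gene of a laminin beta chain, read 908, 580.3 and 582 in Zmpste24-/- cultures, against 926, 491 and 539 in wild-type cultures. It was higher in number 1 by 0.73 (SE 0.11, F-test adjusted p = 0.00258), and Lamb1, another beta chain gene, by 0.37 (adjusted p = 0.00272). Lamc1, the gene of the gamma chain shared by most laminins, read 1159.7, 1918 and 1987 in Zmpste24-/- cultures, against 1135, 1828 and 1637 in wild-type cultures. In it number 1 was the lowest in both genotypes, with a difference of -0.67 (SE 0.09, F-test adjusted p = 0.00143), so the chain genes of laminin did not move together.

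Lama2, which encodes the alpha chain of muscle laminin, read 225, 346 and 423 in Zmpste24-/- cultures, against 273, 367 and 434 in wild-type cultures. It was lower in number 1, at -0.63 (SE 0.12, F-test adjusted p = 0.0087). Nid2 encodes nidogen-2, a linker of laminin and type IV collagen, and read 421, 655 and 759 in Zmpste24-/- cultures, against 330.5, 499 and 423 in wild-type cultures. Number 1 was lowest within each genotype, and Zmpste24-/- was higher in each pair with some overlap, its culture 1 lying below wild-type cultures 2 and 3. The log2 difference of Nid2 was -0.59 (SE 0.13, F-test adjusted p = 0.0223) by number and 0.51 (SE 0.27) by genotype. Nid1, the gene of nidogen-1, was lower in number 1, at -0.60 (adjusted p = 0.00277), while Hspg2 (perlecan), Agrn (agrin) and Lama5 were not called. By genotype Lama2 and Lamc1 differed by -0.13 (SE 0.29) and 0.13 (SE 0.28), and 0 of the 10 were called. Their median by genotype was -0.0042.

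Among the adhesive and matricellular genes 5 of 11 tested were called higher and 1 called lower in number 1. The background was 22.4% called higher and 19.2% called lower. Thbs3 encodes a thrombospondin found in cartilage, tendon and bone and read 676, 262 and 287 in Zmpste24-/- cultures, against 576, 229 and 233 in wild-type cultures. Thbs2, the gene of a thrombospondin that restrains vessel growth and shapes collagen fibrils, read 7321, 3452 and 3532 in Zmpste24-/- cultures, against 5934, 3692 and 3655 in wild-type cultures. In both genes number 1 lay above the other 4 cultures, by 1.26 (SE 0.12, F-test adjusted p = 2.76e-04) and 0.88 (SE 0.09, F-test adjusted p = 3.86e-04). Postn, which encodes periostin, a matricellular protein of collagen-rich tissues, read 13706, 6766 and 9408 in Zmpste24-/- cultures, against 13853, 9976 and 9329 in wild-type cultures. Number 1 was highest in both genotypes, by 0.65 (SE 0.11, F-test adjusted p = 0.00429). Tgfbi and Thbs1 were called with smaller differences, 0.25 (adjusted p = 0.0433) and 0.18 (adjusted p = 0.037), and Tnc, the gene of tenascin-C, was called lower, at -0.31 (adjusted p = 0.0126). Another probe set of Tnc ran the other way, at 0.67 without a call. The second probe set of Thbs1 gave a larger difference than the brightest, 0.46 (F-test adjusted p = 0.00122). Fn1, Sparc, Smoc1, Smoc2 and Tnxb were not called.

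By genotype the 3 with the smallest p were Smoc1, described above, Tgfbi and Fn1. Tgfbi encodes an adhesive protein that transforming growth factor beta induces, and read 3243, 2770.3 and 2824 in Zmpste24-/- cultures, against 3109.8, 2526 and 2538 in wild-type cultures. It was higher in Zmpste24-/- in each pair while the groups overlapped, by 0.12 (SE 0.15). Fn1 was at -0.07 (SE 0.09) by genotype, and Tnxb, the dimmest tested member, at 0.33 (SE 0.53). None was called.

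The other genes of these pathways give the setting for the members. By genotype 0 were called in any of the 6 lists below. By number 6 of 12 elastin cross-linking and assembly genes were called, 4 higher and 2 lower in number 1. In that list Fbln7, the gene of a fibulin, read 136, 25.7 and 57.6 in Zmpste24-/- cultures, against 46.4, 19.7 and 35.0 in wild-type cultures, and Loxl3, the gene of a lysyl oxidase, which cross-links elastin and collagen, read 5212, 5197 and 4632 in Zmpste24-/- cultures, against 7415, 5132 and 5242 in wild-type cultures. They had the smallest genotype p of the list, at 0.68 (SE 0.50) and -0.22 (SE 0.17), with overlap in both.

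Among other proteoglycans 11 of 16 were called by number, 9 higher and 2 lower. Omd and Gpc6, the gene of a heparan sulfate proteoglycan of the cell surface, had the smallest genotype p, at 0.62 (SE 0.32) and 0.41 (SE 0.27). Of 23 genes of glycosaminoglycan synthesis, the enzymes that build the sugar chains, 12 were called and 11 of these were higher in number 1. Csgalnact1, which starts chondroitin sulfate chains and is named here after its values were seen, had a difference of 2.28 (adjusted p = 2.03e-05) by number. Ugp2 and Hs6st1 had the smallest genotype p of that list, at 0.20 (SE 0.15) and -0.16 (SE 0.21). The 1 enzyme gene called lower was Ugdh, which supplies the sugar precursor of these chains, at -0.69 (adjusted p = 1.45e-04).

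Of 7 hyaluronan turnover genes 5 were called by number, 2 higher and 3 lower, and Cemip2 and Hapln3, the gene of a hyaluronan link protein, differed by genotype by 0.40 (SE 0.23) and -0.19 (SE 0.27). Of 10 other basement membrane genes 5 were called by number, 1 higher and 4 lower. Col4a2, the gene of a type IV collagen chain, was among the lower ones at -0.31 (adjusted p = 0.0149), and by genotype it was at -0.18 (SE 0.15) and Col18a1 at 0.40 (SE 0.35). Of 9 other matricellular genes 6 were called by number and all 6 were higher in number 1. Thbs4 and Matn4, which encode a thrombospondin and a matrilin, were at 0.49 (SE 0.58) and -0.72 (SE 0.92) by genotype. Read beside the 41.6% of all probe sets called by number, the shares in these lists lay both near it and above it.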

How the data were processed

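The deposited table holds linear intensity values per probe set, which the authors produced in the Affymetrix program GCOS, per the submitters' processing notes, where no version or algorithm is named. Each array had the same mean of 500 after 2% of probe sets was trimmed from each end, so a change in total RNA per cell cannot be seen. Gene symbols came from the platform annotation, which gives 34945 probe sets 1 symbol, gives 932 more than 1, and lacks 9160. A single symbol led in 34741 cases to a gene identifier in RefSeq on GRCm38.p6. Of 45101 probe sets, 64 controls were left out.

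Values were analysed as log2(value + 16), and the dimmest 40% of probe sets by mean signal, under 39.4, were left out. Genotype and culture number were tested with limma (version 3.58.1, under R version 4.3.3), letting the prior variance follow intensity, and Benjamini-Hochberg adjustment over all 27022 probe sets at a threshold of 0.05, two-sided. The scripts were tested on simulated data. Promoter windows were searched in Python 3.11.15, and figures were drawn with matplotlib 3.10.9. With 3 arrays per group, the number of arrays limits the precision. The members and lists were chosen with earlier results of these data known.

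Signals of every array are given, by rule, for up to 3 members of each role with the smallest genotype p and up to 3 with the smallest number p. The rule adds members whose genotype groups do not overlap and the 3 brightest and 3 dimmest. In each list of other pathway genes up to 2 with the smallest genotype p are named. Same-numbered cultures were taken as paired because their deviations from the group means correlated at 0.83, 0.59 and 0.57, each over the limit of 0.1. Zmpste24-/- culture 2 with wild-type culture 3 reached 0.55, and Zmpste24-/- culture 3 with wild-type culture 2 reached 0.49. These values therefore do not tell which of cultures 2 and 3 belong together. The labels mention pairs without tying a number to one. Alternatives were pseudocounts of 1 and 64, no filter or one of 60%, median centring or quantile normalization, the replicate block, array weights, no intensity trend, numbers 2 and 3 alone, an interaction with number, all probe sets of a gene averaged, and each culture left out.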

Additional observations from a re-analysis of the deposited data

How the results depend on the processing

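By genotype 0 members were called under the main setting and 0 probe sets of all tested. The number of all probe sets called was 1 with array weights, 5 with the replicate block, 20 with numbers 2 and 3 alone, and 0 to 4 with each culture left out. With numbers 2 and 3 alone, genotype and sex by Xist cannot be told apart, so the 20 calls may belong to either. The replicate block changed no call of a member. By number 18 members were called without the intensity trend, against 31, and 26 to 30 with each culture left out. The median difference of the members by number was 0.258 after quantile normalization, 0.0879 after median centring and 0.189 to 0.236 with each culture left out, against 0.195. Some genotype differences that were never called changed sign: Bgn was at 6.46e-05 after quantile normalization, Cd44 at 0.0705 with array weights and 0.0182 with numbers 2 and 3 alone, and Lama2 at 0.0279 with array weights. With each culture left out, Eln ranged from -0.00614 to 0.649, Has2 from -0.213 to 0.755, Cd44 from -0.295 to 0.193, Lama2 from -0.317 to 0.116 and Lamc1 from -0.0752 to 0.373. The cause of these shifts was not tested.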
